A study of Mus musculus with 8 samples.

Results

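Genes for the uptake, storage and oxidation of lipids were examined in macrophages sorted from mouse mammary tumours that did or did not lack the transcription factor gene E2f3. The set is a list of 36 named genes. It holds 6 receptors (Cd36, Msr1, Marco, Olr1, Scarb1, Lrp1) and 6 apolipoproteins and lipoprotein enzymes (Apoe, Apoc1, Apoc2, Lpl, Pltp, Angptl4). It also holds 6 genes for nuclear receptors and the ubiquitin ligase Mylip (Nr1h3, Nr1h2, Rxra, Ppard, Pparg, Mylip) and 2 fatty acid binding proteins (Fabp4, Fabp5). The last classes are 8 storage and lipolysis genes (Dgat1, Dgat2, Soat1, Plin2, Plin3, Pnpla2, Lipe, Mgll) and 8 oxidation genes (Cpt1a, Cpt2, Acadl, Acadm, Acadvl, Hadha, Hadhb, Acat1). Of the 36 genes, 34 were named by at least 1 probe set carrying exactly 1 gene symbol, out of 18193 genes so named on the array. Nr1h2 and Soat1 were not. A further pair, Olr1 and Apoc1, lay under the filter on low signal, which left 32 lipid genes among the 10916 genes tested.

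RNA came from F4/80+ cells, F4/80 being a surface protein of mouse macrophages, isolated by flow cytometry from tumours of FVB mice at 80 days of age. All mice carried PyMT, a viral oncogene that gives mammary tumours, and all carried floxed E2f3. The 4 control arrays (replicates B, C, D and G) were PyMT;E2f3 f/f. The 4 E2f3-deleted arrays (A, E, F and H) were PyMT;Lys Cre:E2f3 f/f, in which Cre recombinase is driven from a lysozyme gene that is active in myeloid cells. The controls carried no Cre, so Cre and the loss of E2f3 cannot be told apart. The sources do not say whether each array came from 1 animal or a pool, so the p-values below measure the spread between these arrays only. Signals are log2 values on a scale that ended at 14.80, and differences are E2f3-deleted minus control.

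Macrophages take up modified lipoproteins through scavenger receptors such as Msr1, Marco and Cd36, and free fatty acids with the help of Cd36. Inside the cell fatty acids are carried by binding proteins, joined into triglycerides and kept in droplets coated by perilipins, or released again by a chain of lipases. Mitochondria oxidise them after the carnitine shuttle, whose entry enzyme is Cpt1a. Nuclear receptors of the PPAR and LXR families, paired with Rxra, sense fatty acids and oxysterols and control many of these genes. Several of the genes are not particular to macrophages: Fabp4, Cd36 and Lpl are abundant in fat cells, and Fabp4 and Cd36 are also made by the endothelium of small vessels.

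The 8 arrays had medians of 5.65 to 5.69. Replicate H of the E2f3-deleted group stood apart, with a mean correlation of 0.983 with its group against 0.990 to 0.995 for the other 7 arrays with theirs. The 3′ over 5′ signal of Gapdh, a measure of RNA integrity and labelling, was 1.45 ± 0.06 (SD, n = 4) in log2 in controls and 1.67 ± 0.17 in E2f3-deleted arrays. It was highest in E2f3-deleted A (1.87) and H (1.73), and ran from 1.39 (control D) to 1.59 (E2f3-deleted F) on the other arrays. The targeted gene did not separate the groups: the brighter of the 2 E2f3 probe sets gave 7.58 to 7.83 in controls and 7.53 to 7.79 in E2f3-deleted arrays (difference −0.05, SE 0.08, limma adjusted p = 0.812), and the dimmer 6.03 to 6.31 and 5.92 to 6.12. Which exons are floxed is not given in the labels, so probe sets outside them would check nothing. The macrophage identity of the samples was borne out by Csf1r, Cd68, Lyz2 and Adgre1, the gene of F4/80, which all stood above 12.6 on all 8 arrays. Of 11 macrophage markers tested, 10 had a lower mean in the E2f3-deleted group, with medians per array of −0.19 to −0.13 against −0.07 to 0.07 in controls, and the groups did not overlap for 4 of them, all lower (36.4%, against 4.22% of all genes). In whole-sample RNA, fewer cells of a type and less RNA per cell cannot be told apart.

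No lipid gene passed an adjusted p of 0.05. Neither did any of the 10916 genes tested (0.0%), and the smallest adjusted p among them was 0.153. That count rested on the set of arrays, being 60 without replicate E and 14 without replicate H of the E2f3-deleted group, with 0 lipid genes in either. Of the 32 lipid genes, 13 had a higher and 19 a lower mean in the E2f3-deleted group, with a median difference of −0.04 against −0.03 over all genes tested. At an unadjusted p under 0.05, 2 lipid genes were higher, Fabp4 and Mgll (6.25% of 32, against 7.27% of all genes). A further 3 were lower, Msr1, Lrp1 and Lipe (9.38%, against 6.9%). The groups did not overlap for 1 gene that was higher, Fabp4 (3.12%, against 4.26%), and for 0 that were lower (against 4.22%). These shares lay close to those of all genes. Without control replicate B the counts were 1 higher and 5 lower, and without E2f3-deleted replicate A they were 1 and 2. The shares of all genes at that threshold were not counted in those fits.

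**Figure D1:**
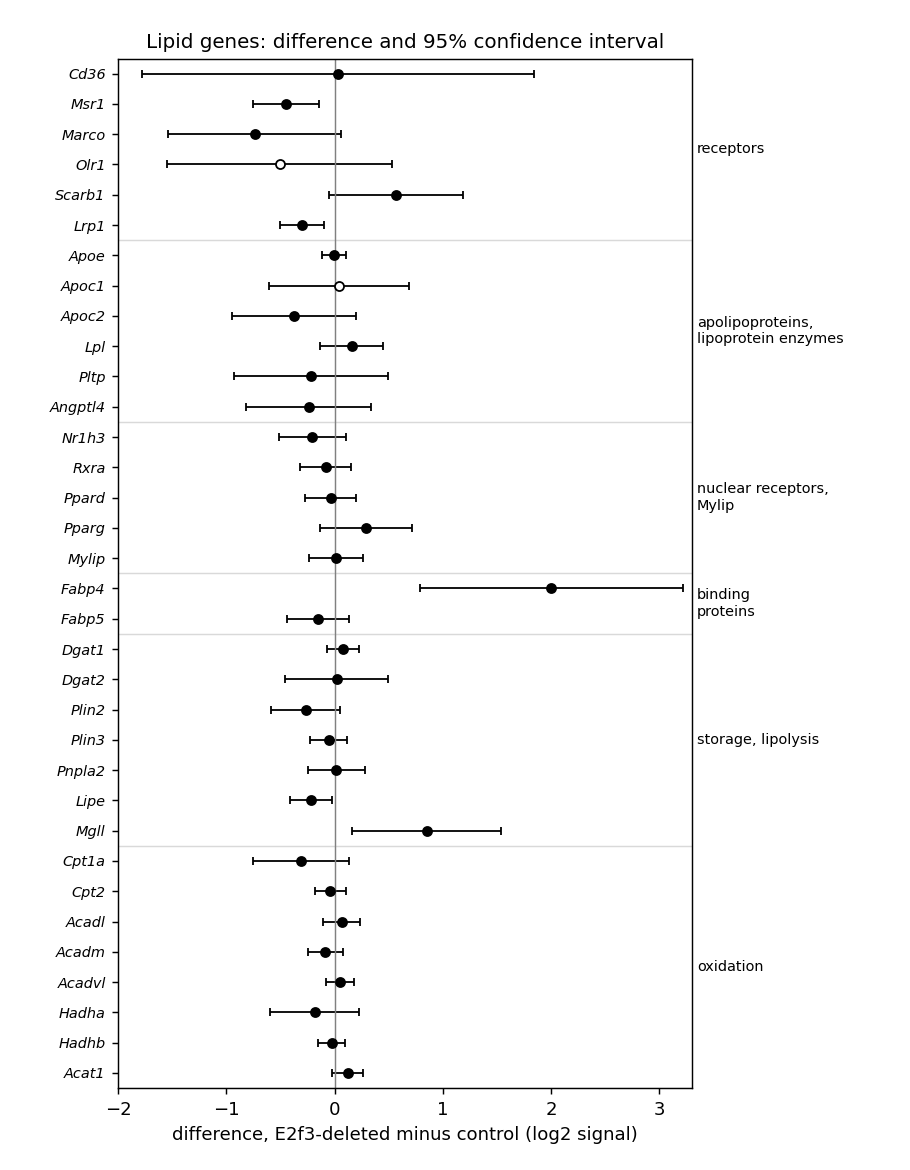
Difference in log2 signal, E2f3-deleted minus control, of the 34 lipid genes with a probe set, ordered by class. Points are differences of means (4 arrays against 4), bars their 95% confidence intervals from limma, and open points the 2 genes under the filter. Fabp4 lies farthest from 0 (2.0), Cd36 has the widest interval (−1.78 to 1.84), and the oxidation genes have narrow intervals around 0 except Cpt1a and Hadha.

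Among the receptors, Msr1 and Lrp1 had lower means in the E2f3-deleted group, by 0.45 and 0.30, and Scarb1 a higher mean, by 0.57. Msr1 encodes the class A scavenger receptor, which takes up oxidised and acetylated lipoprotein. Its signal was 12.28, 12.53, 12.59 and 12.49 in control replicates B, C, D and G, and 11.77, 12.30, 12.18 and 11.83 in A, E, F and H of the E2f3-deleted group. The lowest control and the highest E2f3-deleted array overlapped by a small margin, and A and H lay well under all controls. The difference was −0.45 (SE 0.13, 95% confidence interval −0.76 to −0.15), 1.37-fold lower, with an unadjusted p = 0.00882 and an adjusted p = 0.239 in limma. All 4 probe sets of Msr1 were lower, by 0.40 to 0.57, each at an unadjusted p under 0.05 in limma. They read 1 gene on the same arrays and are not independent. Of 11 macrophage markers, 10 also had lower means (median difference −0.18, lowest −0.39), and whether Msr1 fell beyond them was not tested. The Msr1 difference stayed between −0.55 and −0.36 in every alternative tried, with adjusted p-values of 0.124 to 0.893. None of these fits included the 3′ over 5′ signal of Gapdh. Replicates A and H, the lowest in Msr1, were the highest in that signal (1.87 and 1.73). The part of RNA integrity and labelling was not tested.

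Lrp1 encodes a large endocytic receptor for remnant lipoproteins carrying Apoe. It gave 11.81, 11.80, 11.79 and 11.71 in controls B, C, D and G, and 11.38, 11.41, 11.37 and 11.73 in E2f3-deleted A, E, F and H. The controls were tightly grouped, 3 E2f3-deleted arrays lay clearly under them, and H lay among them. The difference was −0.30 (SE 0.09, interval −0.51 to −0.10, 1.23-fold lower, unadjusted p = 0.00842, limma adjusted p = 0.237), and −0.39 without H (adjusted p = 0.0578). Both of its probe sets were lower, but the dimmer, at −0.40 (SE 0.25), had an unadjusted p = 0.145 in limma. The 3 E2f3-deleted arrays low in Lrp1 were also high in endothelial markers, described further on. In controls the endothelial median ran from −0.45 (B) to 0.46 (D), with Lrp1 at 11.81 and 11.79. With the endothelial level as a covariate the Lrp1 difference was −0.11 (unadjusted p = 0.245 in limma). The covariate itself differed between the groups, and the part of endothelial RNA was not tested. Adjusted p-values over all alternatives ran from 0.0578 to 0.921.

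Among the lipid genes with a promoter window, Lrp1 alone held in it the letters of an E2F site, the element read by the deleted factor. The windows were RefSeq's 250 bases before to 50 after each start (GRCm38.p6), and 26 of the 36 genes had one; Fabp4, Msr1 and Scarb1 were among those without. The letters searched, TTTGGCGC or TTTCGCGC on either strand, stood in 1 of 26 lipid genes (3.85%) and in 0.929% of the 27025 genes in the table. The Lrp1 promoter is shown up to its start, at chr10:127621149-127621398 on the minus strand of GRCm38.p6, with the match in capitals, 179 to 172 bases before the start.
Lrp1: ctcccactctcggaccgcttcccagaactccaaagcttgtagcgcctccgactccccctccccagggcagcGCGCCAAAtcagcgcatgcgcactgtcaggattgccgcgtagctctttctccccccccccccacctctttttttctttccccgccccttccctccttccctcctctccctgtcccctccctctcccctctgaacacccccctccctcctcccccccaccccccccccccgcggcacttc
The capitals read GCGCCAAA, which is TTTGGCGC on the other strand. A match of letters is a description and does not show binding.

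Scarb1, the receptor for high-density lipoprotein, was even in the controls and uneven in the E2f3-deleted group. It gave 9.50, 9.55, 9.72 and 9.67 in B, C, D and G, and 10.74, 10.14, 10.50 and 9.34 in A, E, F and H. Of the 4 E2f3-deleted arrays, 3 lay above all controls and H below all of them. The difference was 0.57 (SE 0.27, unadjusted p = 0.0687, limma adjusted p = 0.385), and its 3 probe sets gave 0.47 to 0.59. Without H it was 0.85 (adjusted p = 0.0715), and with the endothelial level as a covariate it turned to −0.17; adjusted p-values over all alternatives ran from 0.0715 to 0.970.

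Cd36, the fatty acid translocase and scavenger receptor, did not differ between the group means, but it varied between arrays more than nearly all genes. It gave 8.23, 11.02, 10.10 and 9.35 in controls B, C, D and G, and 10.66, 10.37, 10.15 and 7.64 in E2f3-deleted A, E, F and H. The control standard deviation of 1.18 was at the 99.8th percentile of all genes tested. The difference was 0.03, with an interval of −1.78 to 1.84, so a change of over 3-fold in either direction lay inside it. It ran from −0.45 without control B to 0.72 without H.

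The remaining receptors were dim. Marco, a class A receptor of resident macrophages, gave 5.52, 7.36, 6.62 and 5.98 in controls and 5.54 to 5.74 in the E2f3-deleted group, whose mean of 5.63 lay under the filter, so that the gene was tested only because of the controls. Its difference of −0.74 (SE 0.35, limma adjusted p = 0.382) was −0.41 without control C and −1.02 without control B. Olr1, the receptor LOX-1, lay under the filter with 4.10 to 5.65 in controls and 3.24 to 5.01 in E2f3-deleted arrays.

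**Figure D2:**
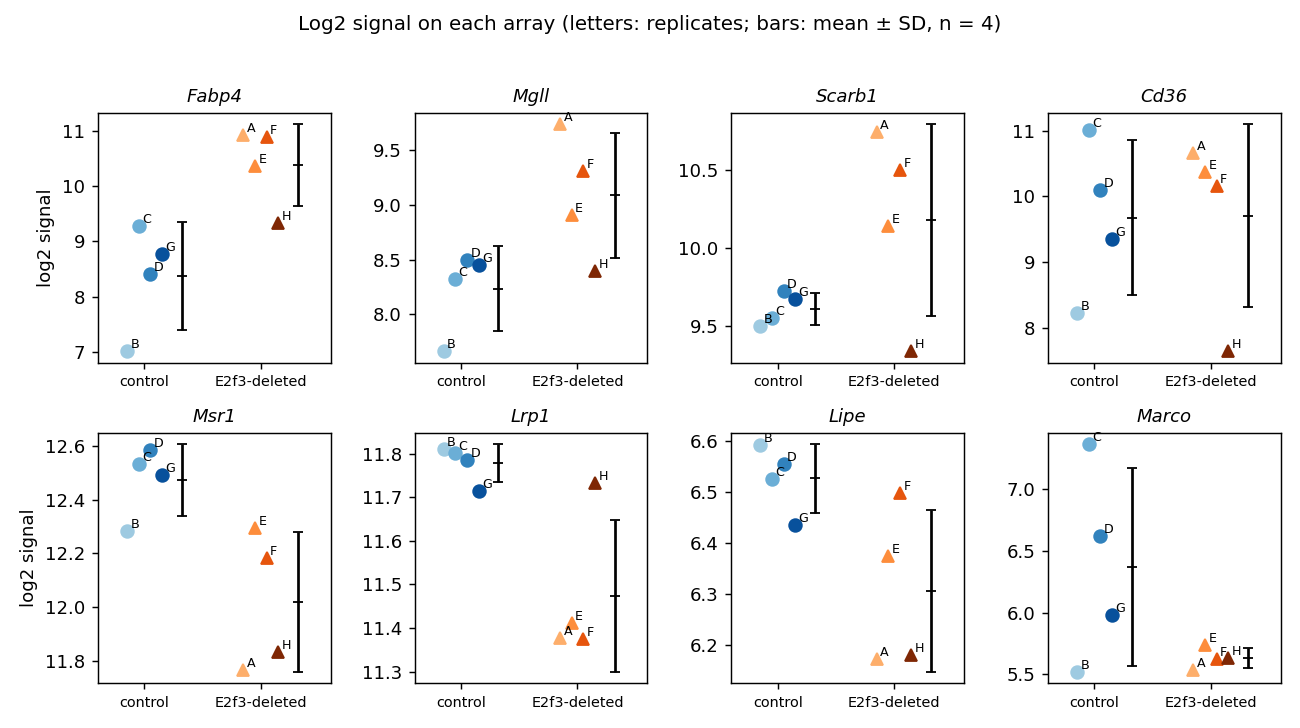
Log2 signal of 8 lipid genes on each array, circles for the 4 control and triangles for the 4 E2f3-deleted arrays, with replicate letters and bars for mean ± SD; each panel has its own axis. Fabp4 separates the groups (7.01 to 9.27 against 9.33 to 10.91), while for Mgll, Scarb1 and Lrp1 replicate H lies among or below the controls.

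Apolipoproteins and lipoprotein enzymes had no gene at an unadjusted p under 0.05. Apoe, which macrophages secrete with cholesterol, is one of the 3 lipid genes with the highest mean signal, with Plin2 and Fabp5, though signals of different probe sets do not measure relative amounts. It gave 14.72, 14.80, 14.70 and 14.71 in controls B, C, D and G, and 14.77, 14.71, 14.69 and 14.74 in E2f3-deleted A, E, F and H. The groups overlapped fully (difference −0.0034, SE 0.05, interval −0.12 to 0.11), at the top of the scale, where differences may be compressed. Lpl, the lipase that frees fatty acids from lipoproteins, was 12.74 to 13.13 in controls and 12.74 to 13.22 in E2f3-deleted arrays (difference 0.16, SE 0.13; 0.27 without E2f3-deleted F and 0.10 without control B). Apoc2, the activator of Lpl, was 9.51 to 9.95 in controls, and 9.47, 9.55, 9.75 and 8.54 in A, E, F and H. Its difference of −0.37 (SE 0.25, limma adjusted p = 0.509) was −0.11 without H. Angptl4, an inhibitor of Lpl and a classical PPAR target, was 8.10 to 9.25 against 8.21 to 8.87. Its difference of −0.24 was −0.04 without control C, −0.42 without control B and −0.40 without E2f3-deleted F. Pltp, the phospholipid transfer protein and an LXR target, was 12.66 in control C and 11.77 to 11.82 in the other controls. The E2f3-deleted arrays gave 10.98 in H and 11.87 to 12.26 in the others, and the difference of −0.22 was 0.05 without H. Apoc1 lay under the filter (5.38 to 6.01 against 4.83 to 6.06).

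Among the nuclear receptors, the means of Rxra (−0.08), Ppard (−0.04) and Mylip, an LXR-induced ligase that degrades lipoprotein receptors (0.01), differed by less than 0.1. Pparg, the receptor linked to lipid uptake and storage, was 7.08 to 7.76 in controls and 8.18, 7.55, 7.80 and 7.51 in A, E, F and H, with a difference of 0.29 (SE 0.19, limma adjusted p = 0.495). It was 0.15 without E2f3-deleted A and 0.16 without control D. Nr1h3, which encodes LXR alpha, was 6.88 to 7.33 in controls and 6.62 to 7.10 in E2f3-deleted arrays, a difference of −0.21 (SE 0.13, limma adjusted p = 0.501) that was −0.10 without control C. The groups overlapped for all 5 genes of this class.

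The binding proteins behaved differently from one another. Fabp4 gave the largest difference of the 32 lipid genes. Its signal was 7.01, 9.27, 8.41 and 8.78 in controls B, C, D and G, and 10.91, 10.37, 10.89 and 9.33 in E2f3-deleted A, E, F and H. All 4 E2f3-deleted arrays lay above all controls, though H and control C were nearly level. The means were 8.37 ± 0.97 and 10.37 ± 0.74 (SD, n = 4 each), a difference of 2.0 (SE 0.53, interval 0.79 to 3.22) or 4.01-fold. The unadjusted p = 0.00515 ranked 264th among all genes, with an adjusted p = 0.212 in limma. All 4 Fabp4 probe sets were higher, by 0.54 to 2.0, and 3 of them had an unadjusted p under 0.05 in limma. Those with mean signals of 5.75 and 4.47 lay under the filter value, and the dimmer of these was among the 3. The controls themselves spread over more than 2 log2 units, a standard deviation at the 99.6th percentile of all genes. Leaving out 1 array at a time moved the difference from 1.55 (without control B) to 2.35 (without H). Fabp5, the form widespread in macrophages, gave 12.97, 13.46, 13.44 and 13.34 in controls, and 13.12, 13.33, 13.18 and 12.97 in E2f3-deleted arrays. These groups overlapped (difference −0.15, SE 0.12, limma adjusted p = 0.575). The value was −0.26 without control B, and −0.10 without control C or without H.

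Markers of endothelial cells also had higher means in the E2f3-deleted group. All 16 endothelial markers tested, of 18 listed, had higher means in the E2f3-deleted group (median 1.31). Of these, 14 had an unadjusted p under 0.05 in limma (87.5%, against 7.27% of all genes). The groups did not overlap for 2 of them (12.5%, against 4.26%). Relative to the control mean their median was 2.03, 1.07, 2.01 and 0.04 in A, E, F and H, and −0.45, 0.05, 0.46 and 0.01 in B, C, D and G. Their summed level (log2 of the mean linear signal) was 6.82 to 7.84 in controls and 7.43 to 9.56 in E2f3-deleted arrays. Mmrn2, the brightest, was 7.73 to 9.41 in controls and 8.73 to 11.55 in E2f3-deleted arrays, and none of the tested markers was near 0. The smallest p in this list was that of Gpihbp1, the endothelial protein that anchors Lpl in capillaries, with 6.47 to 7.33 against 7.50 to 8.92 (difference 1.44, limma adjusted p = 0.196). E2f3-deleted A, E and F were high both in endothelial markers and in Fabp4, Mgll and Scarb1. Among the controls, B was lowest both in endothelial markers and in Fabp4, while D was highest in the markers and C in Fabp4. In replicate H, whose endothelial level was that of the controls, Fabp4 was 9.33, just above the highest control.

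With the endothelial level as a covariate, Fabp4 differed by 0.87 (unadjusted p = 0.147 in limma) and Mgll by 0.06. The counts at an unadjusted p under 0.05 were 1 higher and 5 lower, and the share of all genes in that fit was not counted. In that fit Msr1 was −0.55 (unadjusted p = 0.0224 in limma) and Plin2 −0.49 (unadjusted p = 0.024 in limma). Apoc2 was −0.95 (unadjusted p = 0.00421 in limma), Nr1h3 −0.42 (0.0424) and Cd36 −1.77 (0.0443). The gene that was higher was Acat1, by 0.21 (unadjusted p = 0.0357 in limma). Adjusted p-values of these 6 genes were 0.248 to 0.298 in that fit. The covariate itself differed between the groups, so the fit cannot assign a share to either, and the part of endothelial RNA in these differences was not tested. Of 11 fat cell markers listed, 8 had a probe set and 1 (Slc2a4, difference 0.04) passed the filter. Adipoq was 3.02 to 4.09 in controls and 3.02 to 4.72 in E2f3-deleted arrays, Cidec 2.88 to 3.27 on all arrays, and Lep 3.38 to 3.82, near the low end of a scale that began at 1.87. Trarg1, a fat cell gene under the filter and singled out after its values were seen, was 4.85 to 5.11 in controls and 6.05, 5.20, 6.24 and 4.70 in A, E, F and H, so that it too was high in A and F. The part of fat cell RNA was not tested. Replicate H was also the highest in mast cell markers (median 3.99 over controls, against −0.34 to 1.23 in A, E and F) and in fibroblast markers (2.13, against −0.39 to 0.97). The summed mast cell level was 6.44 to 7.11 in controls and 6.96 to 10.996 in E2f3-deleted arrays, and that of fibroblasts 9.81 to 11.12 and 10.21 to 12.36; their part in the lipid gene values was not tested. The same holds for epithelial markers, of which 11 of 11 tested had higher means (median 0.45, summed level 9.01 to 10.18 against 9.23 to 10.42). Few lymphocyte (2) and neutrophil (3) markers passed the filter, and the B cell marker Ms4a1 was 4.92 to 9.49 in controls and 4.64 to 7.47 in E2f3-deleted arrays.

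**Figure D3:**
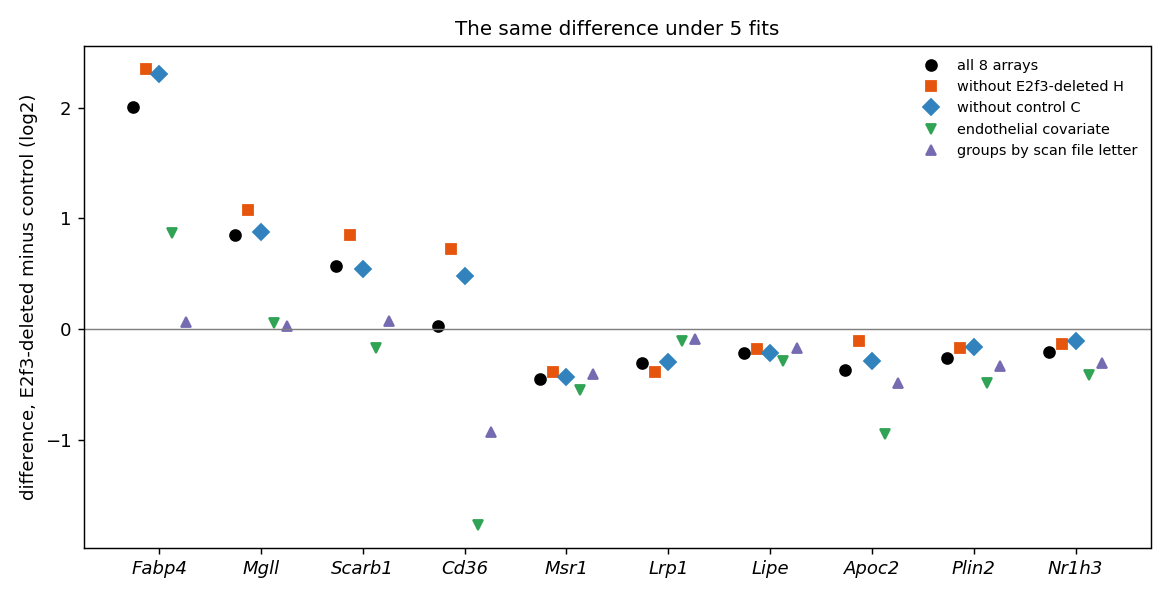
Difference (E2f3-deleted minus control, log2) of 10 lipid genes in 5 fits: all 8 arrays, without E2f3-deleted H, without control C, with the endothelial median as a covariate, and with groups by the letter of the scan file. Fabp4 runs from 0.07 to 2.35 and Cd36 from −1.77 to 0.72 over these fits, while Msr1 stays between −0.55 and −0.39. The 0.07 comes from groups by scan file letter, which exchanges control B and E2f3-deleted F and so relabels arrays.

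Of the 7 storage and lipolysis genes tested, 1 was higher and 1 lower at an unadjusted p under 0.05 (14.3% each, against 7.27% and 6.9% of all genes), and the median difference was 0.02. Mgll, the lipase that splits monoglycerides in the last step of triglyceride breakdown, gave 7.66, 8.32, 8.50 and 8.45 in B, C, D and G, and 9.73, 8.91, 9.30 and 8.39 in A, E, F and H. Again 3 E2f3-deleted arrays lay above all controls and H lay among them. The difference was 0.85 (SE 0.30, interval 0.16 to 1.54), 1.80-fold higher, with an unadjusted p = 0.0218 and an adjusted p = 0.282 in limma. Of its 4 probe sets 3 were higher with an unadjusted p under 0.05, and the dimmest gave −0.12. The value was 0.63 without A and 1.08 without H. Lipe, hormone-sensitive lipase, acts one step earlier. It gave 6.59, 6.53, 6.56 and 6.44 in controls, and 6.17, 6.38, 6.50 and 6.18 in E2f3-deleted arrays. Replicates A, E and H lay under all controls and F among them (difference −0.22, SE 0.09, 1.16-fold lower, unadjusted p = 0.032, limma adjusted p = 0.310). Replicates A and H, the lowest in Lipe, were also the highest in the 3′ over 5′ signal of Gapdh (1.87 and 1.73), whose part was not tested. Both Lipe probe sets were lower, but the dimmer had a mean signal of 3.16, far under the filter value. Pnpla2, the lipase of the first step, differed by 0.02 (interval −0.25 to 0.28).

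Plin2, the main coat protein of lipid droplets in macrophages, overlapped between the groups. Its signal was 13.30, 13.82, 13.56 and 13.40 in B, C, D and G, and 13.22, 13.39, 13.43 and 12.98 in A, E, F and H. Control C was the highest array and H the lowest, and the difference was −0.27 (SE 0.14, interval −0.58 to 0.05, limma adjusted p = 0.416). It was −0.16 without control C and −0.17 without H. Plin3, a coat protein of nascent droplets, differed by −0.06, and Dgat1 and Dgat2, which complete triglyceride synthesis, by 0.08 and 0.02.

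Of the 8 fatty acid oxidation genes, 6 had narrow intervals around 0, and Cpt1a and Hadha had wider ones. None had an unadjusted p under 0.05; 3 had higher and 5 lower means, the median difference was −0.03, and 5 of 8 differed by less than 0.1. Their control standard deviations had a median of 0.07, against 0.17 over the 32 lipid genes and 0.10 over all genes tested. For the acyl-CoA dehydrogenases Acadl, Acadm and Acadvl, for Cpt2 of the inner carnitine shuttle, for Hadhb of the trifunctional protein and for the thiolase Acat1, all intervals lay between −0.25 and 0.26. The widest gaps were those of Cpt1a, the entry enzyme of the shuttle, and Hadha, the partner of Hadhb. Cpt1a was 10.10 to 10.72 in controls and 9.65 to 10.33 in E2f3-deleted arrays (difference −0.31, SE 0.19, interval −0.75 to 0.14, limma adjusted p = 0.488), a difference of −0.17 without control C and −0.19 without H. Hadha was 7.32 to 7.76 against 7.04 to 7.76 (difference −0.19, interval −0.60 to 0.23). It was −0.08 without E2f3-deleted A, −0.09 without H, −0.11 without control C and −0.33 without E2f3-deleted E.

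Much of the spread lay between arrays of 1 group. Control replicate C held the highest of the 8 values for 13 of the 32 lipid genes, among them Cd36, Marco, Apoe, Pltp, Angptl4, Nr1h3, Fabp5, Plin2 and Cpt1a. That is 40.6% of the lipid genes, against 14.97% of all genes tested. Within the controls alone, C was highest for 18 lipid genes (56.25%, against 24.8% of all genes) and B lowest for 14 (43.75%, against 21.4%). E2f3-deleted H held the lowest of 8 values for 12 lipid genes (37.5%), but also for 30.1% of all genes, and A held the highest for 8 (25.0%, against 12.7%). These arrays were singled out after their values were seen, and the shares are a description.

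**Figure D4:**
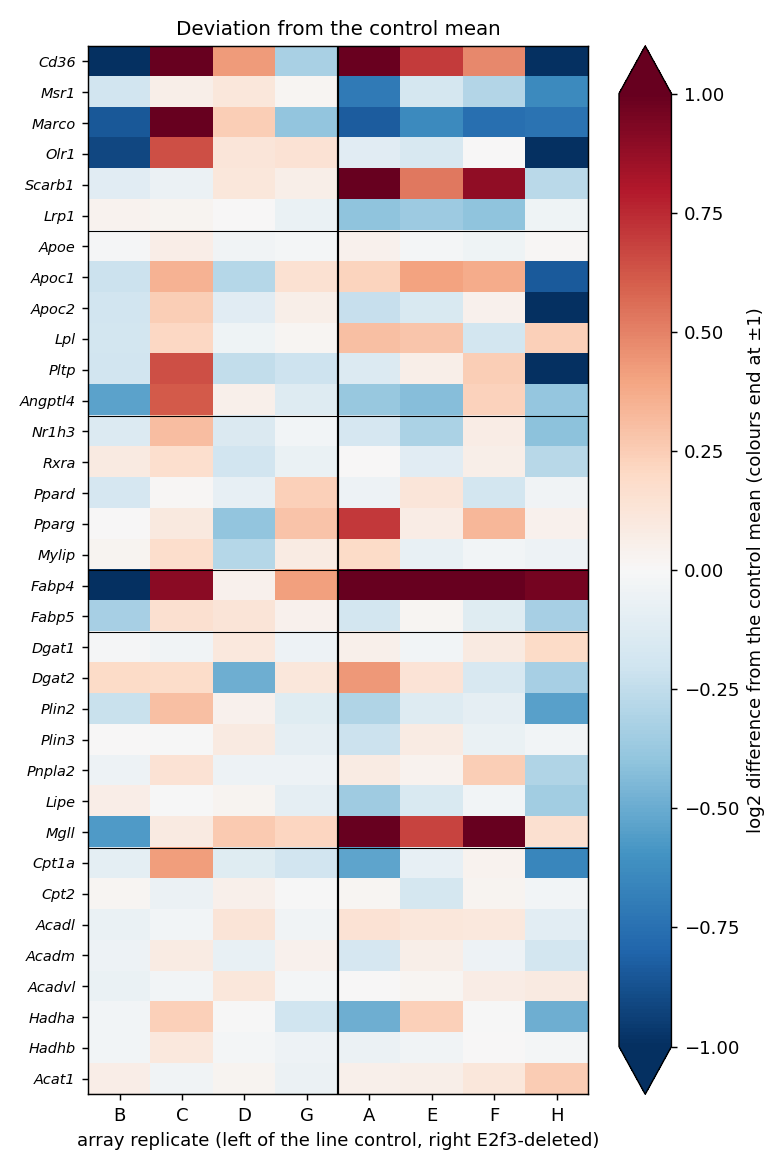
Log2 signal of each of the 34 lipid genes on each array, as the difference from the control mean of the gene; colours end at ±1, and lines part the classes and the groups. Control C is red for Cd36, Marco, Olr1, Pltp and Angptl4, for which E2f3-deleted H is blue, with Cd36 at 11.02 and 7.64.

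Sites of the PPAR and LXR receptors of the list are built from the element AGGTCA. A search for that element, added after the values were seen, found it on either strand in the windows of 9 of 26 lipid genes (34.6%, against 18.1% of the 27025 genes): Acadm, Acadvl, Apoc2, Cd36, Cpt1a, Olr1, Plin2, Pparg and Rxra. Direct repeats of AGGTCA 1 base apart (the PPAR form) and 4 bases apart (the LXR form) stood in 0 of 26, and in 0.0481% and 0.0148% of all genes. For Plin2, Cd36 and Cpt1a, as examples of a droplet coat, an uptake and an oxidation gene, 50 bases around the element follow in the direction of the gene. The capitals mark the match, TGACCT, which is AGGTCA on the other strand.
Plin2: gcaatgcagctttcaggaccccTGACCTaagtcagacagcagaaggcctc
Cd36: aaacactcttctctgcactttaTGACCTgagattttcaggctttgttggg
Cpt1a: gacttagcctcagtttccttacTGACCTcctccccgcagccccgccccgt
They lie at chr4:86670250-86670299 (minus strand), chr5:17836097-17836146 (minus strand) and chr19:3323185-3323234 (plus strand) of GRCm38.p6, with the match ending 213, 223 and 89 bases before the start.

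Further genes of the same pathways, 73 in 6 lists, gave 61 tested genes, of which 21 had higher and 40 lower means, with 4 at an unadjusted p under 0.05 in each direction (6.56% each, against 7.27% and 6.9% of all genes). In cholesterol efflux and lysosomal cholesterol transport all 9 genes had lower means (median −0.13), none at an unadjusted p under 0.05. The nearest were Nceh1, which hydrolyses cholesterol esters (−0.27, SE 0.13), the lysosomal exporter Npc1 (−0.21, SE 0.11) and the efflux pump Abcg1 (−0.21, SE 0.11). Over all genes tested, 58.7% had lower means.

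Fatty acid uptake and activation held the gene with the smallest p of these lists. Slc27a3, of the fatty acid transport protein family, was 5.91 to 5.93 in controls and 6.46, 6.44, 6.20 and 6.18 in A, E, F and H. The groups did not overlap (difference 0.40, SE 0.08, unadjusted p = 0.000798, limma adjusted p = 0.160), but the control mean of 5.92 lay under the filter of 5.998. Vldlr, the very-low-density lipoprotein receptor, was 6.59 to 7.90 in controls and 7.86 to 9.29 in E2f3-deleted arrays, highest in H (difference 1.02, SE 0.38, limma adjusted p = 0.294). Slc27a1, another transport protein, differed by −0.37 (SE 0.13, limma adjusted p = 0.282). The list as a whole had 6 higher and 3 lower means.

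Among 12 other storage genes, 1 had an unadjusted p under 0.05: G0s2, an inhibitor of the lipase Pnpla2. It gave 6.35, 6.78, 7.30 and 6.77 in controls B, C, D and G, and 7.81, 7.49, 7.64 and 8.65 in A, E, F and H. The groups did not overlap, and H was the highest array (difference 1.10, SE 0.28, unadjusted p = 0.00451, limma adjusted p = 0.210). Of 19 other oxidation genes, 14 had lower means, and Echs1, the enoyl-CoA hydratase of mitochondria, alone had an unadjusted p under 0.05 (8.75 to 8.92 against 8.61 to 8.74, difference −0.14, adjusted p = 0.350). Among 7 other scavenger receptors, Cxcl16 (−0.20, SE 0.08) and Colec12 (−0.28, SE 0.12) were lower at an unadjusted p under 0.05, with adjusted p-values of 0.313 and 0.337. The 5 other nuclear receptors and coactivators tested all differed by less than 0.1.

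Titles and scan files carry different letters for the same array. The scan file letters run from A to H in the order of the samples, controls first, and the groups used above come from titles and genotypes. If the scan file letters were the replicate letters, control B and E2f3-deleted F would change groups. Control B held the lowest Fabp4 and Mgll signal of all arrays, so that exchange by itself shrinks their differences. In that grouping Fabp4 differed by 0.07, Mgll by 0.03, Scarb1 by 0.07 and Lrp1 by −0.09, while Msr1 differed by −0.40 (unadjusted p = 0.0293, limma adjusted p = 0.893). The counts at an unadjusted p under 0.05 were then 0 higher and 6 lower, and the share of all genes was not counted for that grouping.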

How the data were processed

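The authors deposited RMA values in log2 for 45101 probe sets and 8 arrays, per the submitters' processing notes; no version is given there. RMA evens out the arrays before probes are summarised, which can hide a change common to most genes; array medians still ran from 5.65 to 5.69. RNA was extracted with Trizol and labelled as biotinylated cRNA, per the labels' protocols. The number of arrays limits the precision.

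In the platform annotation 34945 probe sets had exactly 1 symbol, 932 several and 9160 none here, and 64 were controls. By Entrez identifier 34741 were found in the RefSeq table (GRCm38.p6), with 0 symbols updated. Each gene took its probe set with the highest mean over 8 arrays, and genes under the 40th percentile of that mean (5.998) were left out. Of 22 lipid genes with several probe sets, 7 had probe sets in both directions.

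Groups came from titles and genotypes. The test was limma 3.58.1 (lmFit and eBayes in R 4.3.3, no covariate, two-sided, Benjamini-Hochberg over 10916 genes, threshold 0.05). Lists were described by counts and medians, with no test. The fit was checked on simulated arrays, with noise independent between genes and of the same spread in both groups. That check does not cover arrays of unequal quality or shifts shared by many genes. Every array's value is given for lipid genes with an unadjusted p under 0.05, with groups that did not overlap, or among the 3 with the highest mean signal. A few others are given likewise, chosen after their values were seen. Of each further list up to 3 genes with the smallest p are named, and of each marker list the brightest and up to 2. The members, lists and the endothelial covariate were chosen with earlier results of these data known.

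Alternatives changed 1 choice at a time: averaging the probe sets of a gene; a filter at the 60th percentile or none; more quantile normalization; centring on medians; the variance prior; weights for arrays; 1 array left out; groups by scan file letter; the endothelial covariate; and an adjusted p of 0.1. The median difference of all genes tested was −0.03, −0.06 with more quantile normalization and −0.04 with centring.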

Additional observations from a re-analysis of the deposited data

Results flagged for a closer look

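In 10 of 68 groups of 4 arrays, 1 array lay far from the other 3, past Dixon's 95% critical value for the gap over the range; chance gives about 1 in 20 groups, and genes on the same arrays are not independent. Of these, 4 were E2f3-deleted replicate H: Cd36 was 7.64 (others 10.15 to 10.66), Olr1 3.24 (others 4.84 to 5.01), Apoc1 4.83 (others 5.89 to 6.06), and Lrp1, the one high value, 11.73 (others 11.37 to 11.41). Replicate F of that group was low in Lpl (12.74, others 13.15 to 13.22) and high in its inhibitor Angptl4 (8.87, others 8.21 to 8.26). Control C was high in Pltp (12.66, others 11.77 to 11.82), Pnpla2 (8.88, others 8.68 to 8.69) and Cpt1a (10.72, others 10.10 to 10.20). Control D was low in Dgat2 (8.01, others 8.61 to 8.68). The causes were not tested.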

How the results depend on the processing

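Over 17 alternatives, 19 of the 32 lipid genes kept their direction in every fit that gave them a value and 13 reversed in at least 1. The alternatives include the groups by scan file letter, which relabel arrays. In any of these fits, 0 lipid genes passed an adjusted p of 0.05. At 0.1, 0 passed in the fit as reported, Lrp1 with array weights (0.0786), and Lrp1 (0.0578) and Scarb1 (0.0715) without E2f3-deleted H. No paired analysis was possible because the replicate letters are not shared by the groups. The counts at an unadjusted p under 0.05, 2 higher and 3 lower, became 3 and 1 with the mean of probe sets, 0 and 6 with groups by scan file letter, and 1 and 5 with the endothelial covariate. The shares of all genes at that threshold were counted only in the fit as reported. Leaving out 1 array gave 1 to 3 higher and 2 to 5 lower lipid genes, and 0 to 60 of all genes at an adjusted p under 0.05. The median over the lipid genes stayed between −0.11 and −0.01.

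Reversed with the mean of probe sets were Dgat2 (−0.050) and Pnpla2 (−0.034). Further quantile normalization reversed the same pair (−0.0072 and −0.0051), median centring Mylip (−0.0013) and array weights Pltp (0.039). Groups by scan file letter reversed Cd36 (−0.93), Apoe (0.012), Pnpla2 (−0.13), Acadl (−0.021) and Acadvl (−0.023). The endothelial covariate reversed Cd36 (−1.77), Scarb1 (−0.17), Apoe (0.0023), Ppard (0.0073), Mylip (−0.021), Dgat2 (−0.10), Plin3 (0.0082), Pnpla2 (−0.23) and Acadl (−0.090). Leaving out 1 array gave both signs for Cd36 (−0.45 to 0.72), Apoe (−0.018 to 0.018), Pltp (−0.37 to 0.055), Ppard (−0.093 to 0.044), Mylip (−0.085 to 0.068), Dgat2 (−0.14 to 0.14), Pnpla2 (−0.061 to 0.12), Cpt2 (−0.061 to 0.0050) and Hadhb (−0.045 to 0.0070). The causes were not tested. Marco, Olr1, Apoc1 and Lipe lie near or under the filter, where signal over background limits what can be seen.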
